A study of Mus musculus with 4 samples.

Results

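The antioxidant and redox defence genes described here are a list of 39 genes chosen by name and function, out of the 53465 genes counted in each library. They comprise superoxide dismutases, catalase, glutathione peroxidases, peroxiredoxins, the thioredoxin, glutaredoxin and glutathione systems, the regulators Nfe2l2 and Keap1, and 2 metallothioneins. All 39 passed the filter on low counts, which kept 18157 genes. RNA came from ventricles of mice at postnatal day 1, and the 4 libraries formed 2 groups of 2. Control mice had the genotype Ctnnb1floxP/floxP; alphaMHC-Cre- and knockout-labelled mice had the genotype Ctnnb1floxP/floxP; alphaMHC-Cre+, so both groups carried homozygous floxed Ctnnb1 and differed in the Cre transgene as well as in the intended deletion. The alphaMHC promoter drives Cre in cardiomyocytes, and other ventricular cells were not targeted. Ctnnb1 encodes β-catenin, which links cadherins to the cytoskeleton and carries canonical Wnt signals to the nucleus. Labels do not say whether the libraries of a group came from separate animals. The sex-linked genes given below show different animals for the knockout-labelled pair and do not settle it for the controls. The p-values measure only the spread between these libraries. Transcripts of mitochondrial enzymes were set against those of cytosolic enzymes and of targets of the transcription factor NRF2.

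Superoxide leaks from the respiratory chain and from oxidases, and superoxide dismutases convert it to hydrogen peroxide. Catalase, glutathione peroxidases and peroxiredoxins then remove the peroxide. Glutathione peroxidases and peroxiredoxins use electrons from glutathione or thioredoxin, which are recharged by reductases that use NADPH. Many of the cytosolic enzymes are induced when oxidants or electrophiles release NRF2, the product of Nfe2l2, from its repressor KEAP1. The heart after birth shifts from glycolysis towards mitochondrial oxidation, and mitochondria are the main source of superoxide in its myocytes.

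The libraries held 34027143 to 45651797 counts in genes, and every member had between 46 and 68362 counts in every library. Levels are CPM, counts per 1e6 counts after scaling by the trimmed mean of M-values, and are given for control 1 and control 2 (without Cre) and then for the knockout-labelled libraries, knockout 1 and knockout 2 (with Cre). Ctnnb1 measured 409 and 434 CPM without Cre against 527 and 460 CPM with Cre. Its log2 fold change was 0.23 ± 0.20 (SE, edgeR adjusted p = 0.532), so the targeted gene was not lower. The count covers the whole gene and all cell types and therefore does not check the labels. Defining cardiomyocyte markers summed to 55644 and 48681 CPM without Cre against 59973 and 69597 CPM with Cre. Their median log2 fold change was 0.27, with 5 of 10 higher in both knockout-labelled libraries and 5 overlapping. Mural cell markers had a median of -0.44, with 4 of 7 lower in both knockout-labelled libraries and 3 overlapping. Over all genes tested, 26.5% were higher and 29.7% lower in both knockout-labelled libraries, shares that also apply to the marker counts below. Knockout 2 was the only library with abundant Xist (602 CPM against at most 0.327 CPM), and control 1 the only one with abundant T-cell markers (336 CPM in sum against at most 6.32 CPM). Kdm5d, a gene of the Y chromosome, measured 41.3 and 42.4 CPM without Cre against 37.4 and 0 CPM with Cre. The 2 knockout-labelled libraries therefore differed in sex. Transcripts encoded in mitochondrial DNA took 5.25% and 7.65% of gene counts without Cre against 10.2% and 14.4% with Cre. The 10 markers of dividing cells summed to 175 and 259 CPM without Cre against 451 and 605 CPM with Cre, and all 10 had both knockout-labelled libraries on the higher side. The part of these differences in the results on the members was not tested. In bulk tissue, fewer cells of a type and less RNA per cell cannot be told apart.

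Most redox defence genes had positive fold changes, and none passed the adjusted threshold of edgeR's quasi-likelihood test. Of the 39 members, 31 had a positive and 8 a negative log2 fold change of knockout-labelled over control (22 and 17 with scaling by library totals). The median was 0.31, against -0.02 over all 18157 genes. Both Cre+ libraries lay above both controls in 21 members and below both in 2, Txnip and Gpx3, against 26.5% and 29.7% of all genes. In the other 16 members the groups overlapped. Counts of groups lying apart, here and below, are those with the trimmed-mean scaling. At an adjusted p under 0.05, edgeR called 0 members higher and 0 lower, beside 0.011% and 0% of all genes. At an unadjusted p under 0.05 it had 8 members higher and 1 lower, beside 11.8% and 11.2% of all genes. DESeq2 called Prdx1, Prdx3, Prdx4 and Glrx higher and Txnip lower, 4 and 1 members, beside 5.58% and 4.43% of the 17034 genes with an adjusted p. limma-voom called 0 and 0 at the adjusted threshold, and 8 higher and 1 lower unadjusted. The authors' deposited table called the same 5 members as DESeq2 here. The submitters' notes tie it to DESeq2 on these same libraries, so it is not a separate test.

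**Figure D1:**
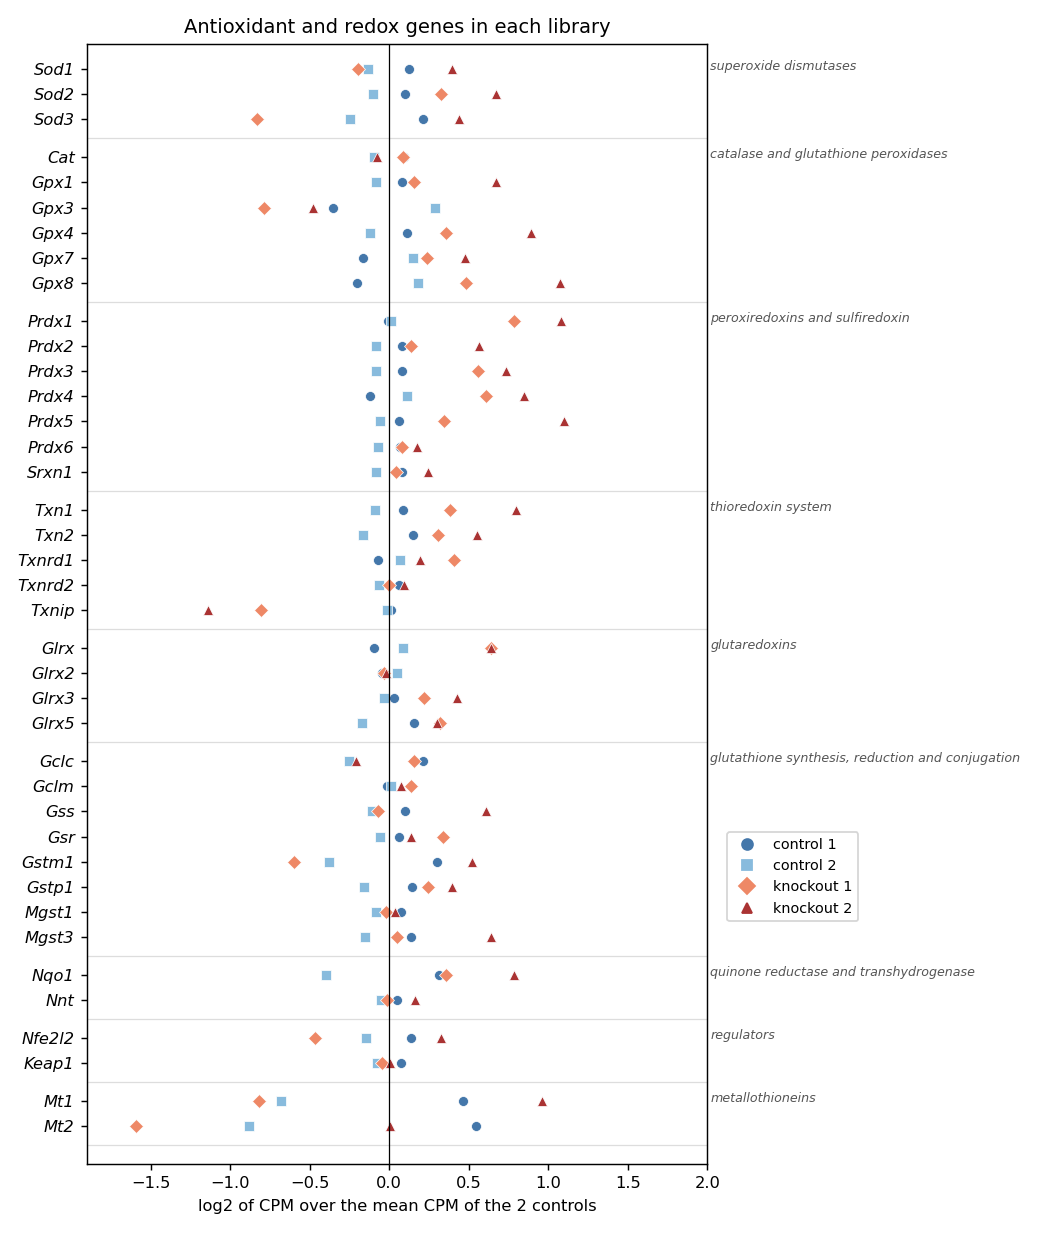
Each row is 1 of the 39 genes, and each point is 1 library's CPM divided by the mean CPM of the 2 controls, on a log2 axis (the line at 0 is the control mean). Points of both knockout libraries lie to the right of both controls in 21 genes and to the left in Txnip and Gpx3, and knockout 2 is the highest library in 27 genes.

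The spread within groups was large beside these differences. In 22 members the larger of the within-group differences exceeded the difference between the groups. Knockout 2 was higher than knockout 1 in 32 members, and control 1 was higher than control 2 in 30. In 13 members control 1 and knockout 2 both lay above control 2 and knockout 1, an order shared by 12.5% of all genes tested. Each library was then left out in turn, and the DESeq2 fits and overlap counts of these settings were added after seeing the data. Each of these fits had a single library in one group, and the number of DESeq2 calls over all genes also moved between the settings. The members' DESeq2 calls are therefore not compared between them. The number of members whose groups lay apart with the knockout-labelled side higher was 30, 22, 31 and 21 without control 1, control 2, knockout 1 and knockout 2, beside 33.6%, 34.6%, 39.5% and 40.7% of all genes. On the lower side it was 3, 7, 2 and 8, beside 37.7%, 38.4%, 45.9% and 42.1%. The members' median was 0.35, 0.19, 0.48 and 0.14 in edgeR without control 1, control 2, knockout 1 and knockout 2. Scaling by library totals in place of the trimmed mean moved the median of all genes by -0.24, and that of the members became 0.05, with 9 members changing sign.

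Peroxiredoxins, the thiol peroxidases that reduce hydrogen peroxide with electrons from thioredoxin, had the highest median log2 fold change among the larger groups of members. Together with sulfiredoxin their median was 0.65, and 6 of 7 had both knockout-labelled libraries above both controls, beside 26.5% of all genes. Without knockout 2 the median was 0.35. With scaling by library totals it was 0.41, but Prdx6 and Srxn1 turned negative.

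Prdx1 (ENSMUSG00000028691.12, chromosome 4, 116685544 to 116700822 in GRCm38) encodes a cytosolic peroxiredoxin and is a target of NRF2. It measured 169 and 171 CPM without Cre against 293 and 360 CPM with Cre. The controls nearly coincided and both knockout-labelled libraries lay well above them. The log2 fold change was 0.94 ± 0.19, a 1.92-fold difference, with an unadjusted p of 0.00279 and an adjusted p of 0.0925 in edgeR. DESeq2 gave an adjusted p of 0.000496 (alternatives gave 0.000496 to 0.625). With one library left out, the log2 fold change ranged from 0.79 to 1.13.

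Prdx3 (ENSMUSG00000024997.7, chromosome 19, 60864051 to 60874556) encodes the mitochondrial peroxiredoxin that draws on thioredoxin 2. It measured 123 and 110 CPM without Cre against 172 and 194 CPM with Cre, and the groups did not overlap. The log2 fold change was 0.65 ± 0.17 (adjusted p = 0.122 in edgeR and 0.0197 in DESeq2, range over the alternatives 0.0197 to 0.649). Prdx4 (ENSMUSG00000025289.15, X chromosome, 155323918 to 155340754), the peroxiredoxin of the endoplasmic reticulum, measured 34.8 and 40.9 CPM without Cre against 57.6 and 68.0 CPM with Cre. Its groups did not overlap, with a log2 fold change of 0.73 ± 0.18 (adjusted p = 0.106 in edgeR and 0.0195 in DESeq2, range 0.0195 to 0.671). Prdx4 is X-linked, and without knockout 2, the library with abundant Xist, DESeq2's adjusted p was 0.0935. Without knockout 2 its log2 fold change was 0.62.

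Prdx5, an atypical peroxiredoxin found in mitochondria, peroxisomes and cytosol, was at 153 and 140 CPM in the controls, 186 CPM in knockout 1 and 314 CPM in knockout 2. Both knockout-labelled libraries lay above the controls, but they differed 1.69-fold from each other, and the log2 fold change was 0.77 ± 0.28 (edgeR adjusted p = 0.176), or 0.35 without knockout 2. Its exons share 19.1% of their length with the antisense gene Trmt112. Prdx2, abundant in red cells as well as in heart, measured 370 and 331 CPM without Cre against 385 and 518 CPM with Cre, a log2 fold change of 0.36 ± 0.23, or 0.14 without knockout 2. The 10 erythroid markers summed to 1093 and 1124 CPM without Cre against 767 and 665 CPM with Cre. Of these, 1 was higher and 5 lower in both knockout-labelled libraries and 4 overlapped, and their part in the value of Prdx2 was not tested. Prdx6, which also reduces phospholipid peroxides, and Srxn1, which reactivates overoxidised peroxiredoxins, had log2 fold changes of 0.13 ± 0.17 and 0.15 ± 0.24, with values of 121 to 143 CPM and 8.67 to 10.9 CPM over the 4 libraries.

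**Figure D2:**
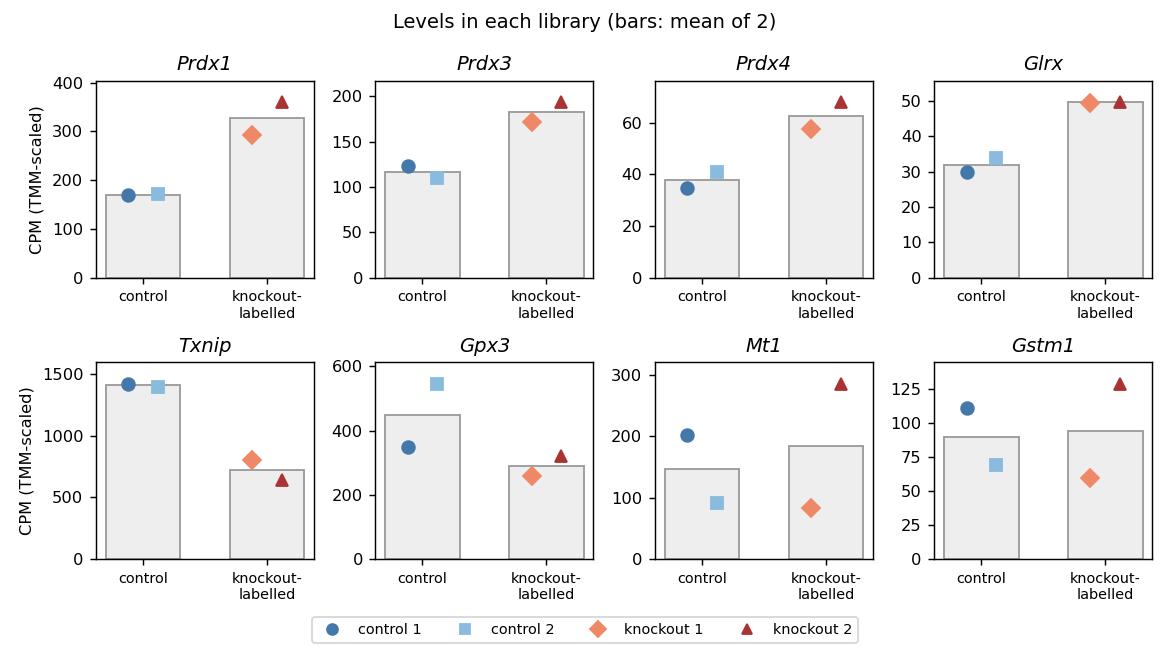
CPM (axes from 0) of 8 genes in each of the 4 libraries, with bars at the mean of 2. For Prdx1, Prdx3, Prdx4 and Glrx both knockout-labelled points lie above both controls and for Txnip and Gpx3 below, whereas for Mt1 and Gstm1 control 1 and knockout 2 are the high libraries.

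Promoter windows of 4 members are shown because they bear on the NRF2 question and on Txnip, the member with the lowest fold change. They are the 250 bases before the transcript start in RefSeq (GRCm38.p6), all on the forward strand, in lower case. RefSeq windows were matched for 34 of 39 members. In Prdx1 (chr4:116685349-116685598), Gclm (chr3:122245307-122245556) and Txnrd1 (chr10:82858956-82859205) capitals mark a match on either strand to TGACNNNGC, the core of the antioxidant response element to which NRF2 binds with small MAF proteins. In Txnip (chr3:96557707-96557956) capitals mark a match to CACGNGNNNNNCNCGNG, a pattern of the carbohydrate response element bound by the glucose-sensing MondoA and ChREBP. The Txnrd1 start in RefSeq lies inside the longer gene of GENCODE.
Prdx1: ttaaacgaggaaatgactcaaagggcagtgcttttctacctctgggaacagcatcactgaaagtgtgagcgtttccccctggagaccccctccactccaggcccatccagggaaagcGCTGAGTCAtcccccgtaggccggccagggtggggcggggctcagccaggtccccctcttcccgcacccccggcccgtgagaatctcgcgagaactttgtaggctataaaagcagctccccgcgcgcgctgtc
Gclm: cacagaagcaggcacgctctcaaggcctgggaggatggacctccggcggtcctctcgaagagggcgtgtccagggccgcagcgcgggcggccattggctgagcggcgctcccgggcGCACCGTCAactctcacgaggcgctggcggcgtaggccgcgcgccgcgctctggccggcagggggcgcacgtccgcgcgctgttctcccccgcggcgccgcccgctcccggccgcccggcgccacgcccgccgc
Txnrd1: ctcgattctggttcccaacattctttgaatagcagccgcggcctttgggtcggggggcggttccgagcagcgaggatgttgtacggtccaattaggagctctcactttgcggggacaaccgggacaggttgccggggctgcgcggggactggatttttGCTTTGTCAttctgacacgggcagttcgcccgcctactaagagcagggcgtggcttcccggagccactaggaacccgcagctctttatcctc
Txnip: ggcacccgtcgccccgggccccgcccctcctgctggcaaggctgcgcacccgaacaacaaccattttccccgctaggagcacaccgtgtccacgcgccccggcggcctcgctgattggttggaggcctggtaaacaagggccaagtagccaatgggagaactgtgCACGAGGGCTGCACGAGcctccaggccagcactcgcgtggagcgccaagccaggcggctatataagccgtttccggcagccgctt

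The core TGACNNNGC was found in 3338 of 32851 RefSeq windows of the same length, or 10.2%. Among the members it was found in 7, namely Prdx1, Gclm, Txnrd1, Nfe2l2, Mgst1, Mt2 and Sod1, and in 3 of the 8 NRF2 targets with a window. In Prdx1 the match began 133 bases before the start, in Gclm 134 and in Txnrd1 92. The carbohydrate response element pattern was found in 92 windows (0.28%), and among the members only in Txnip, 85 bases before the start. A match is a string of letters and says nothing of binding in these hearts. The log2 fold changes of the 7 members with the core were 0.94 for Prdx1, 0.30 for Txnrd1, 0.13 for Sod1, 0.11 for Gclm, 0.01 for Mgst1, -0.02 for Nfe2l2 and -0.59 for Mt2.

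In the thioredoxin system Txn1, Txn2 and Txnrd1 had both knockout-labelled libraries above both controls, and the inhibitor Txnip had both below. Txnip (ENSMUSG00000038393.14, chromosome 3, 96557957 to 96561883) encodes thioredoxin-interacting protein, which binds thioredoxin and restrains glucose uptake. It measured 1421 and 1397 CPM without Cre against 804 and 639 CPM with Cre. The controls were nearly equal and both knockout-labelled libraries lay far below them. The log2 fold change was -0.97 ± 0.24, a 1.95-fold lower level, with an adjusted p of 0.109 in edgeR. DESeq2 gave 0.00059 (alternatives gave 0.00059 to 0.649), and the log2 fold change stayed between -1.09 and -0.80 with one library left out. The exons of Txnip share 19.4% of their length with the antisense gene Gm15441, which had 49 to 96 counts in a library, against 18900 or more for Txnip.

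Txn1, cytosolic thioredoxin, measured 79.2 and 70.2 CPM without Cre against 97.3 and 130 CPM with Cre, a log2 fold change of 0.60 ± 0.20 (edgeR adjusted p = 0.156). Txn2, its mitochondrial counterpart, measured 165 and 133 CPM without Cre against 185 and 219 CPM with Cre, a log2 fold change of 0.43 ± 0.20 (adjusted p = 0.256). Both genes had groups that did not overlap. Of the selenoprotein reductases that recharge them, cytosolic Txnrd1 measured 45.5 and 49.9 CPM without Cre against 63.2 and 54.6 CPM with Cre, a log2 fold change of 0.30 ± 0.16. Mitochondrial Txnrd2 was at 23.2 to 25.9 CPM in all 4 libraries, with a log2 fold change of 0.05 ± 0.17 that turned negative with scaling by library totals.

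Glutaredoxins reduce mixed disulphides between proteins and glutathione or carry iron-sulphur clusters. Glrx (ENSMUSG00000021591.8, chromosome 13, 75839868 to 75850154), the cytosolic dithiol enzyme, measured 29.8 and 33.8 CPM without Cre against 49.5 and 49.6 CPM with Cre. The knockout-labelled libraries were nearly equal and both above the controls. Its log2 fold change was 0.64 ± 0.16, with an adjusted p of 0.109 in edgeR and 0.029 in DESeq2 (alternatives gave 0.029 to 0.686). DESeq2's adjusted p for Glrx was 0.0790 without knockout 2. Mitochondrial Glrx2 was at 31.7 to 33.7 CPM in all 4 libraries, a log2 fold change of -0.03 ± 0.16. The iron-sulphur carriers Glrx3, in the cytosol, and Glrx5, in mitochondria, had log2 fold changes of 0.32 ± 0.17 and 0.31 ± 0.17, with groups that did not overlap. Glrx3 had 109 to 114 CPM without Cre against 130 to 150 CPM with Cre, and Glrx5 57.2 to 71.8 CPM against 79.4 to 80.5 CPM.

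Among glutathione peroxidases the differences were of both signs. Gpx4, the selenoenzyme that reduces lipid peroxides in membranes, measured 189 and 161 CPM without Cre against 224 and 324 CPM with Cre, a log2 fold change of 0.65 ± 0.24 (edgeR adjusted p = 0.184). Gpx8, an enzyme of the endoplasmic reticulum, measured 26.5 and 34.7 CPM without Cre against 42.8 and 64.4 CPM with Cre, a log2 fold change of 0.81 ± 0.25 (adjusted p = 0.145). In both genes knockout 2 was the highest library, 1.45-fold above knockout 1 for Gpx4 and 1.50-fold for Gpx8. Without knockout 2 the log2 fold change was 0.36 for Gpx4 and 0.49 for Gpx8, and with scaling by library totals that of Gpx4 was 0.39. Gpx1, the main cytosolic glutathione peroxidase, had 109 to 123 CPM without Cre against 129 to 184 CPM with Cre, and Gpx7, of the reticulum, 23.5 to 29.2 CPM against 31.1 to 36.7 CPM. Their log2 fold changes were 0.43 ± 0.22 and 0.36 ± 0.19, and that of Gpx1 was 0.16 without knockout 2. Gpx3, the secreted peroxidase of plasma, measured 351 and 546 CPM without Cre against 260 and 322 CPM with Cre. Both knockout-labelled libraries lay below both controls, but control 1 was close to knockout 2, and the log2 fold change was -0.63 ± 0.27 (adjusted p = 0.24). Without control 2 it was -0.26. Catalase (Cat), the peroxisomal enzyme, was at 177 to 202 CPM in all 4 libraries, a log2 fold change of 0.01 ± 0.18 that became -0.23 with scaling by library totals.

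Of the 3 superoxide dismutases, the mitochondrial enzyme was the one whose groups did not overlap. Sod2, the mitochondrial manganese enzyme, measured 339 and 295 CPM without Cre against 397 and 505 CPM with Cre. The log2 fold change was 0.51 ± 0.22 (edgeR adjusted p = 0.230). Sod1, the cytosolic copper-zinc enzyme, measured 389 and 327 CPM without Cre against 312 and 472 CPM with Cre, so that the knockouts enclosed the controls. Extracellular Sod3, with 6.78 and 4.95 CPM without Cre against 3.29 and 7.95 CPM with Cre, had the same order of libraries. The log2 fold changes were 0.13 ± 0.26 for Sod1 and -0.07 ± 0.47 for Sod3, and that of Sod1 became -0.13 with scaling by library totals.

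The genes of glutathione synthesis, reduction and conjugation had a median log2 fold change of 0.17, which became -0.06 with scaling by library totals. Gclc and Gclm, the catalytic and modifier subunits of the rate-limiting ligase of glutathione synthesis, had log2 fold changes of -0.01 ± 0.25 and 0.11 ± 0.16. Gclc was at 15.1 to 20.8 CPM with overlapping groups, and Gclm at 24.9 to 27.6 CPM. Gss, which completes the tripeptide, measured 20.2 and 17.5 CPM without Cre against 17.9 and 28.8 CPM with Cre, so only knockout 2 stood out. Gsr, which regenerates reduced glutathione, measured 27.1 and 24.9 CPM without Cre against 32.9 and 28.6 CPM with Cre, a log2 fold change of 0.24 ± 0.17.

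Glutathione transferases attach glutathione to electrophiles. Gstm1 measured 111 and 69.2 CPM without Cre against 59.6 and 129 CPM with Cre, a 1.61-fold and a 2.17-fold difference within the groups and a log2 fold change between them of 0.07 ± 0.40. Gstp1 had a log2 fold change of 0.32 ± 0.18, with groups that did not overlap (33.4 to 41.2 CPM against 44.2 to 49.0 CPM). The membrane-bound transferases Mgst1 and Mgst3 had log2 fold changes of 0.01 ± 0.19 and 0.37 ± 0.25 with overlapping groups, and for Mgst3 knockout 2 stood out at 198 CPM against 115 to 140 CPM in the other libraries. Mgst1 had 17.9 to 19.9 CPM throughout. Nqo1, a quinone reductase widely used as a marker of NRF2 activity, measured 11.7 and 7.13 CPM without Cre against 12.0 and 16.2 CPM with Cre. Knockout 1 exceeded control 1 only slightly, and the log2 fold change was 0.59 ± 0.32 (edgeR adjusted p = 0.325). Nnt, the mitochondrial transhydrogenase that makes NADPH from NADH, was at 516 to 600 CPM in all 4 libraries, a log2 fold change of 0.08 ± 0.20.

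The regulators did not separate the groups. Nfe2l2, which encodes NRF2, measured 79.6 and 65.5 CPM without Cre against 52.5 and 91.0 CPM with Cre, a log2 fold change of -0.02 ± 0.28. Keap1 was at 42.8 to 47.7 CPM in all 4 libraries, with a log2 fold change of -0.02 ± 0.15 that became 0.41 with trends in GC content and length removed.

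The metallothioneins, small cysteine-rich proteins that bind zinc and copper, varied most within groups among the members. Mt1 measured 203 and 91.8 CPM without Cre against 83.3 and 286 CPM with Cre, a 2.21-fold and a 3.43-fold difference within the groups. Mt2 measured 4.57 and 1.70 CPM without Cre against 1.04 and 3.15 CPM with Cre, with 46 to 213 counts. The log2 fold changes between groups were 0.33 ± 0.62 and -0.59 ± 0.68, and in both genes control 1 and knockout 2 were the high libraries. Mt2 shares 73.5% of its exon length with the antisense gene Gm45774, and whether the counting used strand is not given in the sources used here.

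By compartment, mitochondrial and cytosolic enzymes had the same median. The 7 mitochondrial enzymes had a median log2 fold change of 0.31, with 4 higher in both knockout-labelled libraries (Prdx3, Sod2, Txn2 and Glrx5) and 3 with overlapping groups (Nnt, Txnrd2 and Glrx2). The 16 cytosolic enzymes had a median of 0.31, with 11 higher and 5 overlapping. Over all genes 26.5% were higher in both knockout-labelled libraries. DESeq2 called 1 mitochondrial enzyme (Prdx3) and 2 cytosolic enzymes (Prdx1 and Glrx) higher, beside 5.58% of all genes, and edgeR called 0 of either. Enzymes found in several compartments (Gpx4, Prdx5 and Gsr) had a median of 0.65, and all 3 were higher in both knockout-labelled libraries. Their median was 0.35 without knockout 2 and 0.39 with scaling by library totals. The 8 secreted, reticulum, membrane and peroxisomal enzymes had a median of 0.19, and the 5 regulators and metal binders had a median of -0.02. The order of the 2 medians turned on single libraries: without control 1, control 2, knockout 1 and knockout 2 the mitochondrial median was 0.48, 0.16, 0.35 and 0.32 and the cytosolic median 0.43, 0.25, 0.53 and 0.17. With trends in GC content and length removed the mitochondrial median was 0.49 and the cytosolic 0.35. With scaling by library totals both were 0.07 and that of the secreted, reticulum, membrane and peroxisomal enzymes was -0.06.

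In mean log2(CPM + 0.5), the mitochondrial enzymes were at 6.82 and 6.65 without Cre against 6.95 and 7.09 with Cre. The cytosolic enzymes were at 5.92 and 5.73 without Cre against 6.01 and 6.29 with Cre. In both compartments the groups did not overlap with the trimmed-mean scaling, and knockout 1 was close to control 1. The scaling factors were 1.08 and 1.10 without Cre against 0.972 and 0.869 with Cre. Without these factors knockout 1 lies slightly below control 1 in both compartments, so the separation depends on the scaling. With 2 libraries against 2, an exact two-sided permutation test of such a value cannot give a p below 0.333.

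**Figure D3:**
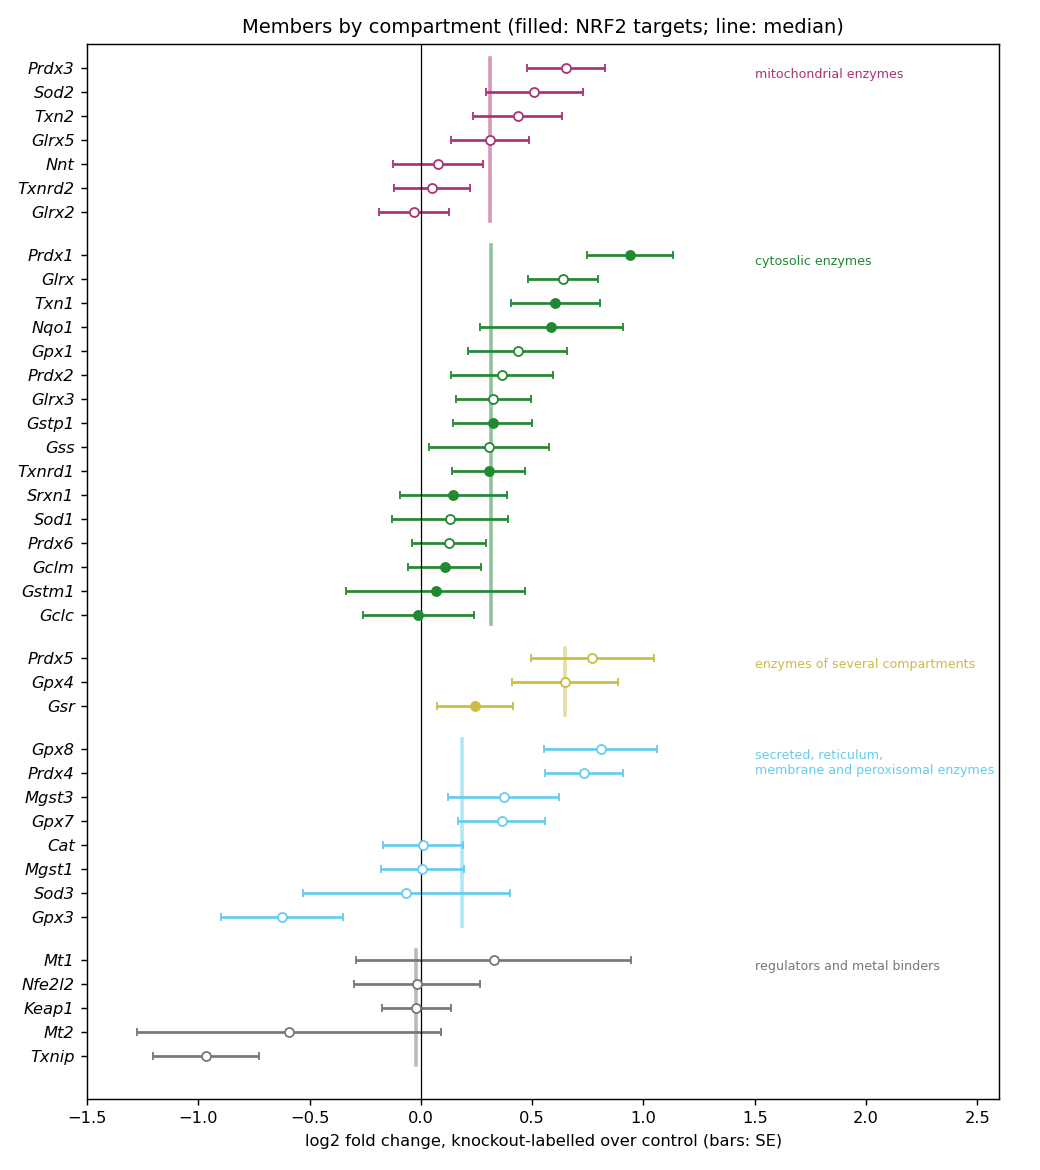
Log2 fold change of knockout-labelled over control for each gene (points, bars are the SE), grouped by compartment, with the group's median as a vertical line and NRF2 targets filled. The medians of mitochondrial and cytosolic enzymes both lie at 0.31, and both become 0.07 with scaling by library totals.

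Each of 5 mitochondrial enzymes has a close cytosolic partner, and the ratio of the partners per exon length within a library does not depend on how libraries are scaled. The ratio of Sod2 to Sod1 stood at 0.346 and 0.358 without Cre against 0.504 and 0.425 with Cre, a shift of 0.40 in log2 towards the mitochondrial enzyme. The ratio of Glrx2 to Glrx stood at 0.666 and 0.624 without Cre against 0.404 and 0.406 with Cre, a shift of -0.67 towards the cytosolic enzyme. In both pairs the groups lay apart, with controls close together. The ratio of Prdx3 to Prdx1 stood at 1.50 and 1.32 without Cre against 1.20 and 1.11 with Cre, a shift of -0.28. The ratios of Txn2 to Txn1 and of Txnrd2 to Txnrd1 shifted by -0.15 and -0.25, and their groups overlapped. With trends in GC content and length removed, the log2 fold change was 0.72 for Txn2 and 0.36 for Txn1, the opposite order. In the other pairs the order of the partners' fold changes held. The pairs did not shift in a common direction.

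**Figure D4:**
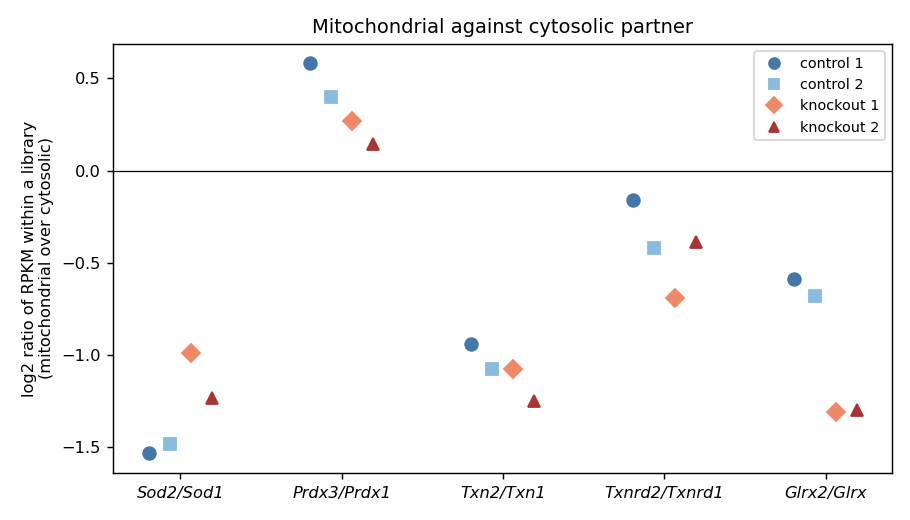
Log2 ratio of RPKM (reads per kilobase of merged exons per 1e6 counts) of the mitochondrial over the cytosolic partner for 5 pairs in each library. The Sod2/Sod1 ratio is higher in both knockout libraries, Prdx3/Prdx1 and Glrx2/Glrx are lower in both, and the groups of the other pairs overlap.

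The 10 NRF2 targets among the members (Nqo1, Gclc, Gclm, Txnrd1, Srxn1, Gsr, Prdx1, Txn1, Gstm1 and Gstp1) had a median log2 fold change of 0.27, which was 0.04 with scaling by library totals. In 7 of them both Cre+ libraries lay above both controls, beside 26.5% of all genes, and in Gclc, Gstm1 and Srxn1 the groups overlapped. DESeq2 called Prdx1 alone, beside 5.58% of all genes called higher, and edgeR called 0. The values ranged from -0.01 for Gclc to 0.94 for Prdx1, and the targets other than Prdx1, Txn1 and Nqo1 lay between -0.01 and 0.32.

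A further list of 20 NRF2 targets outside the members had a median of 0.07 (-0.19 with scaling by library totals). Of these, 6 were higher and 7 lower in both knockout-labelled libraries, shares near the 26.5% and 29.7% of all genes. DESeq2 called Me1 (malic enzyme, 0.93 ± 0.25) and Gsta4 (a glutathione transferase for lipid aldehydes, 0.81 ± 0.22) higher and Aox1 (aldehyde oxidase, -1.09 ± 0.28) lower. Of the 17034 genes with an adjusted p, it called 5.58% higher and 4.43% lower. The same shares apply to its calls in the further lists below. Hmox1, heme oxygenase and a classical NRF2 target that macrophages also express, measured 57.0 and 34.0 CPM without Cre against 20.8 and 27.5 CPM with Cre (-0.91 ± 0.29, edgeR adjusted p = 0.148). The 8 macrophage markers summed to 203 and 158 CPM without Cre against 124 and 161 CPM with Cre. Their median log2 fold change was -0.53, with 1 higher and 5 lower in both knockout-labelled libraries and 2 overlapping. The part of these markers' cells in the value of Hmox1 was not tested. Among 12 partners of NRF2 and KEAP1 the median was 0.01 (-0.23 with scaling by library totals), and DESeq2 called only Cul3, the ubiquitin ligase scaffold that KEAP1 uses, with 84.2 and 97.1 CPM without Cre against 142 and 143 CPM with Cre (0.65 ± 0.17).

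Other genes of the thioredoxin fold and of methionine repair had a median of 0.41 over 15 genes (0.18 with scaling by library totals). Of these, 11 were higher and 2 lower in both knockout-labelled libraries, beside 26.5% and 29.7% of all genes. DESeq2 called Txnl1, a thioredoxin-like protein associated with the proteasome (0.71 ± 0.17), and Msra, which repairs oxidised methionine (0.66 ± 0.18), higher and 0 lower. The other glutathione genes, of which 18 of 19 were tested, had a median of 0.06 (-0.20 with scaling by library totals), with 5 higher and 4 lower in both knockout-labelled libraries. Of these DESeq2 called Oplah, the oxoprolinase of the glutathione cycle, lower (-0.72 ± 0.20), beside 4.43% of all genes, and 0 higher. In edgeR 0 genes of these 4 lists passed the adjusted threshold.

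Levels of different genes were compared per exon length. Txnip was the most abundant member in the controls, at a mean of 451 RPKM, followed by Gpx3 at 247, Mt1 at 118, Mgst3 at 116 and Prdx2 at 115 RPKM. In the knockout-labelled libraries Txnip was at a mean of 231 RPKM and still the highest, and Gpx3 was at 160 RPKM, beside 159 RPKM for Gpx4. Sod3 was the lowest at 1.57 RPKM, below Gss at 3.19 and Srxn1 at 3.25 RPKM. Among peroxiredoxins the order in the controls was Prdx2, Prdx3 (78.7 RPKM), Prdx5 (68.5), Prdx1 (55.9), Prdx6 (26.4) and Prdx4 (18.0 RPKM). In the knockout-labelled libraries Prdx1 was at 107, Prdx5 at 117 and Prdx3 at 124 RPKM, and the ranges of their 2 libraries overlapped. Within each of these libraries Prdx3 lay above Prdx1, at ratios of 1.20 and 1.11. Prdx5 lay below both in knockout 1 (87.0 RPKM) and above both in knockout 2 (147 RPKM). Cytosolic Sod1 was at 90.2 RPKM and mitochondrial Sod2 at 31.7 RPKM in the controls.

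**Figure D5:**
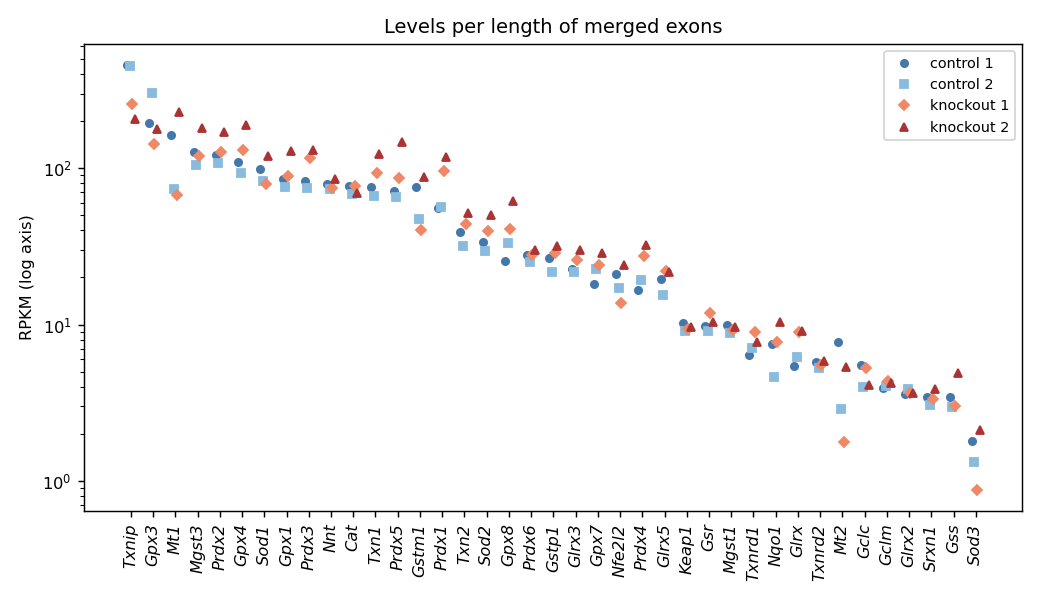
RPKM of each gene in each library on a log axis, ordered by the mean of the controls. Levels run from Txnip, at a control mean of 451 RPKM, to Sod3 at 1.57 RPKM, and the libraries of 1 group are widest apart for Mt1, Mt2 and Sod3.

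Several members have near-identical copies elsewhere (at least 300 aligned bases at 95% identity or more), which can take reads from them or lend reads to them. Copies on the same strand were found for 8 members: Prdx1, Prdx2, Sod1, Gpx4, Txn1, Glrx3, Gstm1 and Gstp1. The 2 pseudogenes of Prdx1 together held 0.786% and 0.943% as many counts as Prdx1 without Cre against 1.90% and 1.83% with Cre. For Gpx4 the pseudogene Gpx4-ps2 held 7.05% and 7.44% as many counts without Cre against 10.0% and 9.98% with Cre. Processed pseudogenes as a whole took 0.256% and 0.247% of gene counts without Cre against 0.413% and 0.425% with Cre, and the share of reads aligned to more than 1 place was 19.4% and 21.0% against 23.9% and 29.7%. The part of such reads in the values of these 8 members was not tested.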

How the data were processed

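RNA of ventricles of newborn mice was measured in 4 libraries made with polyA selection and a stranded kit, per the labels' protocols. The submitters' processing notes name bcl2fastq 2.16.0.10 and FastQC 0.11.5, STAR 2.5.3a, HTSeq 0.6.1 and the build GRCm38. Neither the strand setting nor the annotation release is given in the sources used here. The deposited counts are whole reads per gene without scaling. The authors' deposited table also holds log2 fold changes and p-values, which the submitters' processing notes tie to DESeq2 1.18 and which were used only for the calls credited to it. A further 8 columns of per-sample values in it, counted over all samples, were not used.

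Counts were tested in R 4.3.3 with edgeR 4.0.16 (filterByExpr, trimmed mean of M-values, quasi-likelihood test, Benjamini-Hochberg adjustment over 18157 genes, threshold 0.05). In the text log2 fold changes are those of edgeR unless another tool is named, and ± is their SE. The 5 HTSeq summary categories were left out. Of 53465 gene identifiers, 53360 were matched to GENCODE vM21 for symbols, positions and exon lengths. Alternatives were DESeq2 1.42.0, limma-voom (limma 3.58.1), other scalings, no filter, the replicate number as a block, GC and length trends removed by loess (span 0.3) and leaving out each library. A count of 0 allows 0.0657 to 0.0882 CPM (3 reads, counting error only, before scaling). Replicates differed by more than counting error, chi-square over degrees of freedom being 55.8 for the controls and 132 for the knockout-labelled pair. The fits were tested on simulated data. Near copies were searched with BLAST 2.17.0. Promoter windows of 250 bases came from RefSeq, GRCm38.p6.

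The members, lists and tests were chosen with earlier results of these data known. All 39 members are named, and from each further list at most 4 genes with the smallest p.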

Additional observations from a re-analysis of the deposited data

How the results depend on the processing

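With 2 libraries a group, knockout 2 the highest library in most members and Ctnnb1 not lower, few single values here can be told from the spread, and the targeted deletion, the transgene and differences between single libraries cannot be told apart. The SE of the log2 fold change was largest for Mt2, Mt1, Sod3 and Gstm1 (0.40 to 0.68), and counts were lowest for Mt2, at 46 to 213 in a library. Of the 39 members, 22 kept one sign in all alternatives apart from the crossed pairing below, and the 17 others had a log2 fold change of at most 0.59 in size. The cause of the changes listed here was not tested, other than by the construction of each setting (fewer libraries, another scaling, more genes tested).

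Against 2 genes called in the fit as designed, the number called among all genes was 554 with no filter, 1706 with DESeq2, 0 with limma-voom, and 0 to 30 in edgeR with one library left out. The number of members called was 5 with DESeq2 and 0 in the edgeR and limma-voom alternatives apart from the crossed pairing. The 5 members that DESeq2 called kept their sign in DESeq2 with each library left out in turn. Their groups did not overlap, so that outcome was fixed in advance apart from changes in scaling. With the replicate number as a block, 18 genes and 0 members were called. The numbers give only 2 pairs, which the labels do not tie to a litter or batch, and the deviations of control 1 and knockout 1 from their group means correlated at r = -0.116 across genes. With the numbers crossed, a pairing added after seeing the data, 941 genes and 1 member were called. In the block the medians were 0.27 for the members, 0.32 for mitochondrial enzymes, 0.31 for cytosolic enzymes and 0.27 for NRF2 targets.

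With scaling by library totals these 4 medians were 0.048, 0.071, 0.073 and 0.038. With GC and length trends removed that of the mitochondrial enzymes was 0.49. With one library left out they ranged from 0.14 to 0.48, from 0.16 to 0.48, from 0.17 to 0.53 and from 0.19 to 0.38.

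Signs reversed under library totals in Sod1 (-0.13), Cat (-0.23), Prdx6 (-0.12), Srxn1 (-0.10), Txnrd2 (-0.20), Gclm (-0.13), Gstm1 (-0.20), Mgst1 (-0.24) and Nnt (-0.17). With GC and length trends removed they reversed in Sod3 (0.16), Gclc (0.029), Gstm1 (-0.038), Mgst1 (-0.081) and Keap1 (0.41). With DESeq2's size factors they reversed in Glrx2 (0.00022), Gclc (0.015), Nfe2l2 (0.017) and Keap1 (0.0094). DESeq2 itself gave Gclc 0.0093, Nfe2l2 0.0079 and Keap1 0.0016, and limma-voom gave Gclc 0.016. With one library left out the values ranged from -0.19 to 0.45 for Sod1, from -0.82 to 0.49 for Sod3, from -0.073 to 0.10 for Cat, from -0.0058 to 0.15 for Txnrd2 and from -0.076 to 0.028 for Glrx2. Further ranges were -0.22 to 0.24 for Gclc, -0.063 to 0.66 for Gss, -0.59 to 0.57 for Gstm1, -0.063 to 0.087 for Mgst1 and -0.0070 to 0.22 for Nnt. For the regulators and metallothioneins they were -0.46 to 0.38 for Nfe2l2, -0.088 to 0.059 for Keap1, -0.81 to 1.01 for Mt1 and -1.58 to 0.29 for Mt2.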

Other observations

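Genes next to the antioxidant enzymes, which supply their cofactors, were described from lists. Of 16 other selenoproteins and genes of selenocysteine synthesis, 9 were higher and 3 lower in both knockout-labelled libraries, beside 26.5% and 29.7% of all genes, with a median log2 fold change of 0.32 (0.07 with scaling by library totals). DESeq2 called 4 higher, all small selenoproteins, and 0 lower, beside 5.58% and 4.43% of all genes. The same shares apply to the DESeq2 calls in the lists below. Selenof, of the endoplasmic reticulum, measured 92.5 and 98.7 CPM without Cre against 159 and 187 CPM with Cre (0.86 ± 0.18). Selenoh (0.81 ± 0.16), Selenom (0.73 ± 0.17) and Selenot (0.66 ± 0.19) also had groups that did not overlap. Among 13 genes of NADPH supply the median was -0.05, and DESeq2 called only Mthfd2, a mitochondrial enzyme of folate metabolism, with 3.45 and 2.58 CPM without Cre against 6.36 and 15.0 CPM with Cre (1.82 ± 0.47). Idh1, the cytosolic isocitrate dehydrogenase, had a log2 fold change of 0.54 ± 0.17. Of the 13 genes, 5 were higher and 2 lower in both knockout-labelled libraries. Their median was 0.39, -0.04, -0.13 and 0.29 without control 1, control 2, knockout 1 and knockout 2.

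Among 14 genes that produce oxidants the median was -0.20, and DESeq2 called 0 of them. In both knockout-labelled libraries 5 were higher and 2 lower, beside 26.5% and 29.7% of all genes. Without control 1, control 2, knockout 1 and knockout 2 the median was 0.14, -0.16, 0.15 and -0.02. Rac2, of the phagocyte oxidase, was at 39.7 CPM in control 1 and at 4.06 to 6.11 CPM in the other libraries, and control 1 was also the library with T-cell markers. Without control 1 its log2 fold change was -0.40. Of 8 genes of zinc and metallothionein regulation, DESeq2 called Mt3, a metallothionein outside the members, with 5.83 and 5.72 CPM without Cre against 11.7 and 17.6 CPM with Cre (1.34 ± 0.29). Unlike Mt1 and Mt2 it did not have control 1 and knockout 2 as its high libraries. In edgeR 0 genes of these 4 lists passed the adjusted threshold.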
